A study of Mus musculus with 3 samples.

Results

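Sites of Tbx4 and Hoxc10 were examined at Sox9, Sox5 and Sox6, 3 of 21887 protein-coding genes on the primary chromosomes of the mouse genome. A gene's domain was the gene itself with the stretch on either side up to the next protein-coding gene, at most 1 Mb. The 3 domains held 34 of the 4780 listed Tbx4 sites (0.711%) and 12 sites of the Hoxc10 list (0.743%). Sites came from chromatin immunoprecipitation with sequencing (ChIP-seq), in which fixed chromatin is sheared and the fragments bound by a protein are pulled down with an antibody and sequenced. The tissue was the hindlimb bud of wild-type CD1 embryos at stage e11.5. Tbx4 was pulled down with a homemade antibody and Hoxc10 with an antibody from Abcam, in 1 sample each. A further Hoxc10 sample with a Santa Cruz antibody was not analysed here. The sources used here do not give the number of embryos behind a sample, and the buds are whole tissue with several cell types.

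Sox9 is a transcription factor of the SoxE group and is needed for mesenchyme to condense into cartilage. Sox5 and Sox6 belong to the SoxD group, lack a transactivation domain of their own and work with Sox9 on the genes of the cartilage matrix. Sox9 is a small gene in a large gene desert, and its expression is known to depend on enhancers far from it, whereas Sox5 and Sox6 are long genes with large introns. Tbx4 is a T-box factor of the hindlimb, and Hoxc10 a homeodomain protein encoded in the posterior part of the Hoxc cluster.

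Each site is a summit of 1 bp with the score that the authors deposited, a MACS2 value on a −log10 scale. Scores take few distinct values and were read within 1 list only. The Tbx4 list had a median score of 3.67 (quartiles 2.94 and 7.14), and the Hoxc10 list a median of 7.72 (quartiles 5.05 and 12.99). With 1 sample per factor there is no replicate error, so the values are descriptions without a test, and the read depth is unknown. Positions are 1-based on mm10.

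No summit lay at an end of the 3 genes; the closest, at Sox6, was 7.73 kb from the gene's upper end. RefSeq windows around starts, 250 bases before to 50 after, were matched for Sox5 (1 start, inside the gene and 835 kb below its upper end) and Sox6 (6 starts). The start of Sox5 at its upper end and that of Sox9 were not examined in this way. None of the 7 windows held a summit of either factor, where 0.88% of all 32851 windows held a Tbx4 summit and 0.128% a Hoxc10 summit. The 250 bases before 3 of these starts are shown (RefSeq, GRCm38.p6, all on the minus strand, 5′ to 3′). They are the matched Sox5 start, the Sox6 start that lies nearest to a summit, and a Sox6 start chosen because its window holds the T-box core. Capitals mark a match to GGTGTGA, the T-box core, or to TTTATTG or TTTACGA, cores of posterior Hox proteins, on either strand; the 3 strings do not overlap in these windows.
Sox5, chr6:143947107-143947356: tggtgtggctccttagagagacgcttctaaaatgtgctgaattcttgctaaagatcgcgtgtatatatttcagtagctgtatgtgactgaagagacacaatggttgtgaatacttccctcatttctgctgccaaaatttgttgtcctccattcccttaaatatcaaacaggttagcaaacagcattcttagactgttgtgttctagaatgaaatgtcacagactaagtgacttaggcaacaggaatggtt
Sox6, chr7:116031048-116031297: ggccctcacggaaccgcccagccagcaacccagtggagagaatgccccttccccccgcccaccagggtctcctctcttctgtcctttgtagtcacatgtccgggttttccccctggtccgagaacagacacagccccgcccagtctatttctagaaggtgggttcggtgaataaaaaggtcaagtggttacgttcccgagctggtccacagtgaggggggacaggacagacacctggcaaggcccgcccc
Sox6, chr7:115846141-115846390: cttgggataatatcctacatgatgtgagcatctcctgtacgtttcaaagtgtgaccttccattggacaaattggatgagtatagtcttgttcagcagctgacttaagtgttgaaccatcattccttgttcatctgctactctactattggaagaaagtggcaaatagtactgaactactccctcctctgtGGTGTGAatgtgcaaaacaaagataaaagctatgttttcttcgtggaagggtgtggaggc
The first and second window held none of the 3 strings. The third held GGTGTGA, which is found in 3.33% of all windows. Of the Sox6 windows not shown, only that of the start at 116038744, 2.03 kb below the gene's upper end, held a match, to TTTATTG. This string is found in 4.2% of all windows and TTTACGA in 0.478%. The Tbx4 summit nearest to the third window's start lay 51238 bp away. The second window's start had a Tbx4 summit of score 2.94 at 2003 bp upstream, the closest that any summit came to a matched start. At Sox5 the nearest Tbx4 summit lay 8053 bp downstream of the start shown. A match or its absence in these letters says nothing of binding by the factor.

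Sox9 had many sites of both factors, and all of them were far from the gene. The gene covers 112782210 to 112787757 of chromosome 11 (5.55 kb). Its domain runs over 1463 kb, from 111782210, where the limit of 1 Mb ends it on the side of Kcnj2, to 113244850 next to Slc39a11. Kcnj2 itself, a potassium channel gene, is 1705 kb from Sox9, and a gene model named Gm11677 lies between them, 1056 kb from Sox9. Of the 17 Tbx4 sites, 11 were on the Kcnj2 side and 6 on the Slc39a11 side. Of the 7 Hoxc10 sites, 6 were on the Kcnj2 side. None lay inside Sox9. Sites between Sox9 and Slc39a11, a zinc transporter gene, also count for the latter, which had 8 Tbx4 sites and 1 Hoxc10 site in its own domain.

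Around Sox9 a stretch of 307 kb held no summit of either factor, from the Hoxc10 site at 112563309 to the Tbx4 site at 112870761. The largest such stretches between sites in the domains of Sox5 and Sox6 were of like size, 350 and 307 kb. On the Kcnj2 side the nearest Tbx4 site was 332 kb away and the nearest Hoxc10 site 219 kb away. On the other side the nearest Tbx4 site was 83.0 kb from the gene's upper end. All 11 Tbx4 sites of the Kcnj2 side were thus over 300 kb from Sox9, and 8 of them over 500 kb, with a median distance of 657 kb. For Hoxc10 the 6 distances of that side had a median of 705 kb. In steps of 100 kb from the gene towards Kcnj2, the Tbx4 counts were 0, 0, 0, 2, 1, 1, 3, 1, 2 and 1, and the Hoxc10 counts 0, 0, 1, 0, 0, 0, 2, 1, 1 and 1. The step from 600 to 700 kb was the fullest for both factors. Towards Slc39a11 the counts were 1, 1, 1, 2 and 1 for Tbx4, and Hoxc10 had its 1 site between 200 and 300 kb. A nearest site at 83.0 kb was not particular to Sox9. This was read over the 95 genes with a domain of at least 1 Mb and at least 6 Tbx4 sites. Of these, 16 had their nearest site of either factor as far or farther, while 58 had a site inside. The longer distances on the Kcnj2 side were not compared with those of other genes.

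**Figure D1:**
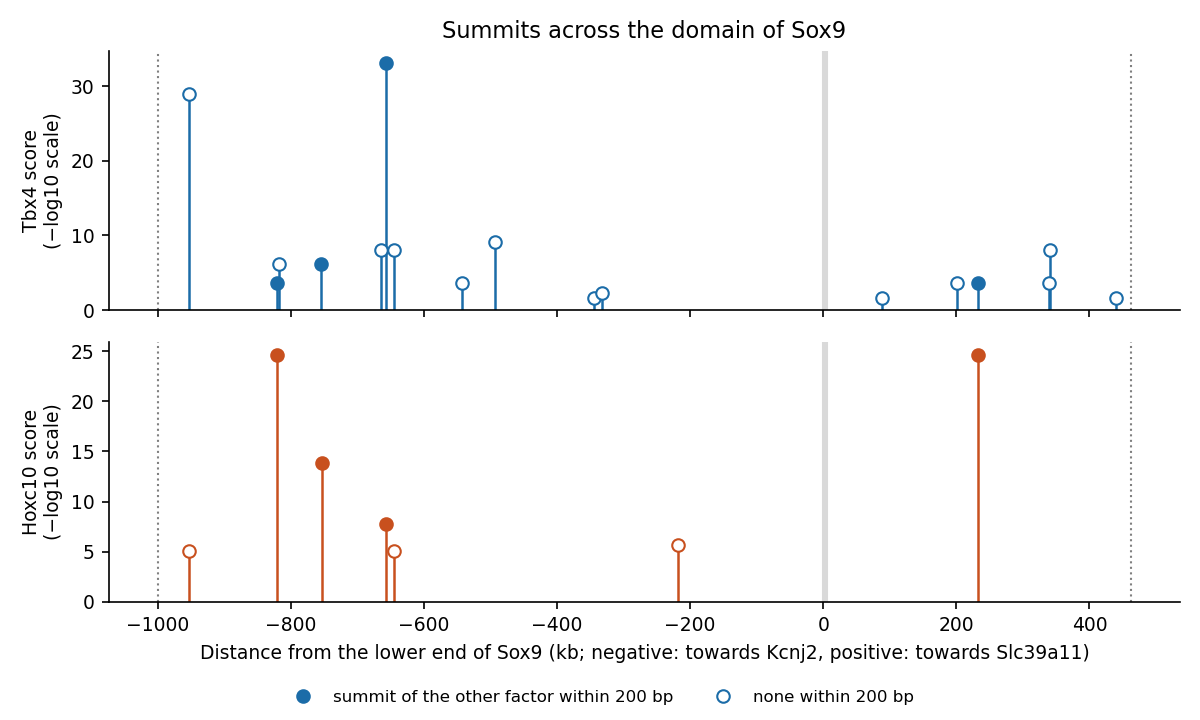
Summits in the Sox9 domain for Tbx4 (upper panel) and Hoxc10 (lower panel), by distance from the gene's lower end in kb (x) and deposited score (y, separate scale per factor). Filled points have a summit of the other factor within 200 bp, the grey band is Sox9 and dotted lines are the domain's ends. The tallest Tbx4 sites (33.08 and 28.89) stand on the Kcnj2 side, and both Hoxc10 sites of 24.63 are filled, one on each side of the gene.

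The Tbx4 scores at Sox9 ranged from 1.63 to 33.08, with a median of 3.67, the same as that of the whole list. The highest was at 112125491, 657 kb from Sox9 on the Kcnj2 side, with a score of 33.08 and rank 94 of the list. The next, at 111828847 (953 kb), scored 28.89 and ranked 124, and lies in the long non-coding gene Gm30337. The third, at 112288442 (494 kb), scored 9.15. These 3 high sites were all on the Kcnj2 side. The site nearest to Sox9, at 112870761, was among the weakest of the list, with a score of 1.63 and rank 4494, and 6 of the 17 sites were in the upper quartile of the list. On the Slc39a11 side the highest score was 8.12, at 113122306 in the non-coding gene 2610035D17Rik, 734 bp from another Tbx4 summit of 3.67.

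The Hoxc10 scores at Sox9 ranged from 5.05 to 24.63, with a median of 7.72. The score of 24.63 was reached at 2 sites, 111962045 (820 kb towards Kcnj2) and 113014486 (227 kb from the upper end towards Slc39a11), which share rank 102 of the list. The third, at 112028207, scored 13.86. The strongest sites of the factors were therefore at different places: the Tbx4 maximum coincided with a Hoxc10 site of 7.72, and both Hoxc10 maxima with Tbx4 sites of 3.67.

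Co-bound pairs, defined as summits of both factors within 200 bp, numbered 4 at Sox9, 3 at Sox5 and 0 at Sox6. In all, 7 of the 12 Hoxc10 sites were paired, or 58.3% (95% exact binomial interval 27.7 to 84.8%), where 32.1% of the whole Hoxc10 list is paired. For Tbx4 it was 7 of 34 sites, or 20.6% (8.70 to 37.9%), against 10.9% of the list. The list value for Hoxc10 lies inside the interval of the 12 sites, and that for Tbx4 inside the interval of the 34 sites; the intervals cover counting error only. By gene, 57.1% of the Hoxc10 sites were paired at Sox9 (4 of 7, interval 18.4 to 90.1%), 100% at Sox5 (3 of 3, 29.2 to 100%) and 0% at Sox6 (0 of 2, 0 to 84.2%), intervals that all overlap. Among Hoxc10 sites over 200 kb from any end of a protein-coding gene, 32.7% were paired over the genome. Of such sites 4 of 6 were paired at Sox9, 2 of 2 at Sox5 and 0 of 1 at Sox6.

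The 4 pairs of Sox9 lay 820, 754 and 657 kb from the gene towards Kcnj2 and 232 kb from its lower end towards Slc39a11. At the first, the Tbx4 summit at 111961921 (3.67) was 124 bp from the Hoxc10 summit of 24.63. The second paired 112028065 (Tbx4, 6.19) with 112028207 (Hoxc10, 13.86) at 142 bp. The third paired the highest Tbx4 site of the domain, 33.08, with a Hoxc10 summit of 7.72 at 112125543, 52 bp away. At the fourth, the summits at 113014505 (Tbx4, 3.67) and 113014486 (Hoxc10, 24.63) were 19 bp apart. Across these 4 pairs the order of the Tbx4 scores was the reverse of the order of the Hoxc10 scores, with a tie at the lowest Tbx4 and highest Hoxc10 value.

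A further pair just missed the limit. The second-highest Tbx4 site of Sox9, 28.89 at 111828847, had a Hoxc10 summit of 5.05 at 230 bp. Another Hoxc10 summit of 5.05, at 112137756, was 412 bp from a Tbx4 site of 8.12. Of the 7 Hoxc10 sites at Sox9, 6 thus had a Tbx4 summit within 500 bp, against 37.5% of the whole list. The only one without was the Hoxc10 site closest to the gene, 5.69 at 112563309, whose nearest Tbx4 summit was 113 kb away. Counting summits of either factor within 1 kb of the next as 1 region, the 24 summits formed 17 regions. The stretch from 112117415 to 112137756 held 5 of the summits, 3 of Tbx4 and 2 of Hoxc10; it was picked out after the values were seen.

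**Figure D2:**
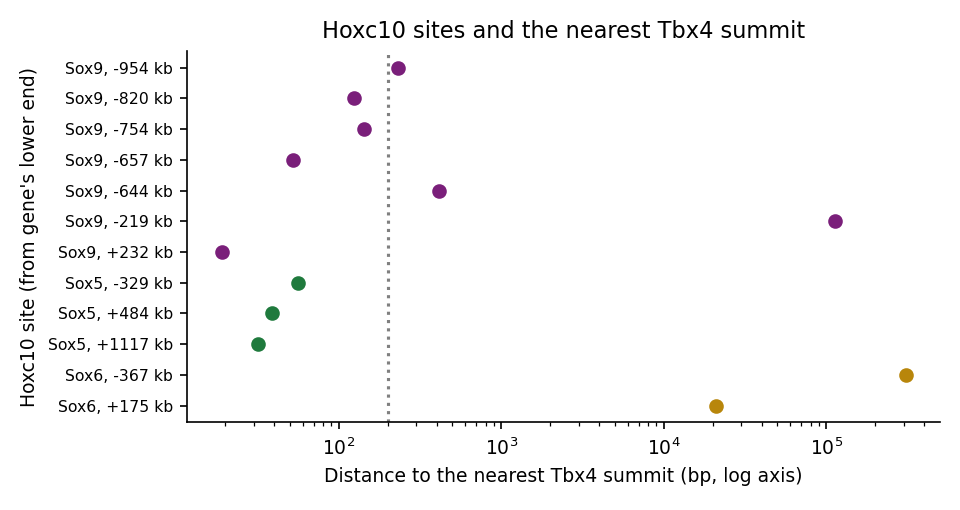
Distance from each of the 12 Hoxc10 sites to the nearest Tbx4 summit (x, bp, log axis), with sites named by gene and distance from the gene's lower end. The dotted line marks 200 bp: 4 of 7 sites of Sox9 and 3 of 3 of Sox5 lie below it, and both sites of Sox6 lie far above.

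Sox5, a SoxD partner of Sox9, carried most of its Tbx4 sites inside the gene, and each of its Hoxc10 sites was co-bound. The gene covers 143828425 to 144782287 of chromosome 6 (954 kb, minus strand), and its domain of 1785 kb reaches from Etnk1, an ethanolamine kinase gene, to Bcat1, an aminotransferase gene. Of 11 Tbx4 sites 8 lay inside Sox5, 2 on the Etnk1 side and 1 on the Bcat1 side. The 3 Hoxc10 sites were spread 1 each over these 3 parts. Exons and introns were not told apart.

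The Tbx4 scores at Sox5 ranged from 2.26 to 14.74, with a median of 6.19, and 9 of 11 were above the list's median. The score of 14.74 was reached at 2 sites, 143499641 on the Etnk1 side, 329 kb from the gene, and 144312765 inside the gene; both rank 372. Next came 3 sites inside the gene with 8.12, at 143838947, 143997760 and 144299632, and the first of these is 10.5 kb from the gene's lower end. Both sites of 14.74 were co-bound. Their Hoxc10 summits scored 19.04 at 143499585, 56 bp away, and 13.86 at 144312804, 39 bp away. The third pair, between Sox5 and Bcat1 and 163 kb from the Sox5 end, was weaker in both lists, with 4.46 for Tbx4 at 144945176 and 5.05 for Hoxc10 at 144945208, 32 bp apart. At Sox5 the strongest sites of both factors thus fell together, unlike at Sox9. This is a description of 3 and 4 pairs and the difference was not tested.

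The inner Sox5 sites left the upper end of the gene empty: between the Tbx4 sites at 144595453 and 144945176, a gap of 350 kb, no summit of either factor was listed. This gap includes the gene's upper end, where the longest transcripts start on the minus strand. It was not particular to that end. A stretch of like length around the lower end, between the Tbx4 sites at 143499641 and 143838947, held no summit either.

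**Figure D3:**
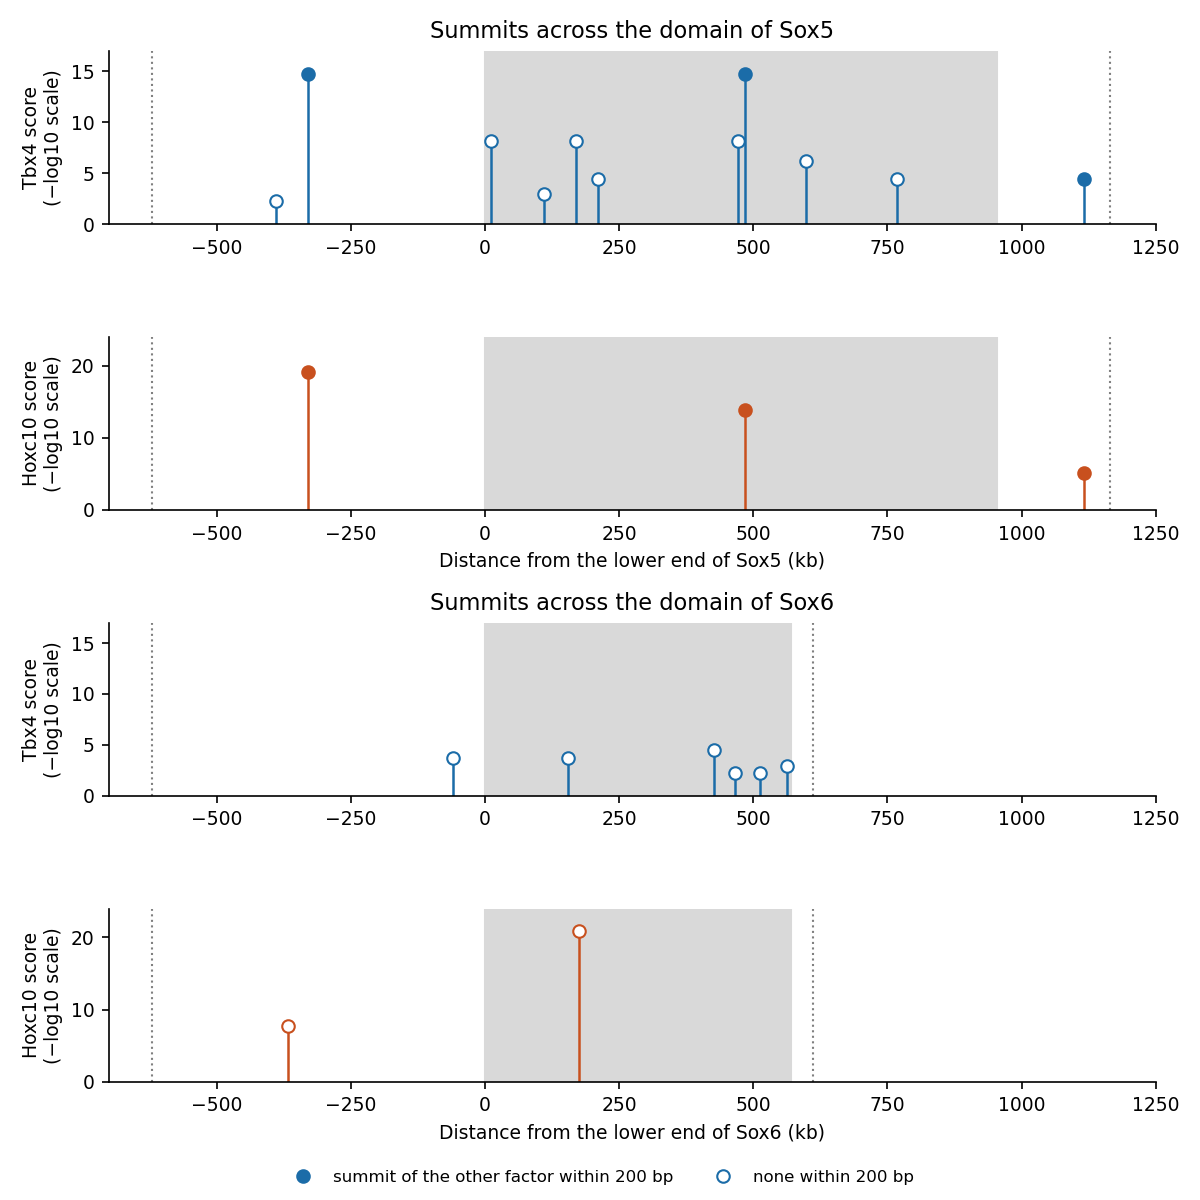
Summits in the domains of Sox5 (upper panels) and Sox6 (lower panels) by distance from the gene's lower end in kb (x) and deposited score (y, separate scale per factor). Filled points have a summit of the other factor within 200 bp, grey bands are the genes and dotted lines the domain ends. All 3 Hoxc10 sites of Sox5 are filled, both of Sox6 are open, and no Tbx4 site of Sox6 exceeds 4.46.

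Sox6, the other SoxD partner, had fewer and weaker Tbx4 sites and no pair. The gene covers 115470872 to 116040776 of chromosome 7 (569.9 kb, minus strand), in a domain of 1231 kb between Insc, a gene of spindle orientation, and 1110004F10Rik. Of its 6 Tbx4 sites 5 lay inside the gene and 1 on the Insc side, 59.9 kb from the gene's lower end. The 6 scores were 2.26, 2.26, 2.94, 3.67, 3.67 and 4.46, and only the last, at 115897378, was above the list's median; none was in the upper quartile. This site and 3 more Tbx4 sites stood in the upper part of the gene, 143, 104, 56.5 and 7.73 kb from its upper end. The last of them is the site near the second start shown. No site lay between Sox6 and 1110004F10Rik.

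Hoxc10 had 2 sites at Sox6. One, inside the gene at 115645910, scored 20.86 and ranked 161 of the list, while the nearest Tbx4 summit was 20888 bp away with a score of 3.67. The other, at 115103651 on the Insc side, scored 7.72, with its nearest Tbx4 summit 307 kb away. The strongest Hoxc10 site of Sox6 was thus in the upper 9.98% of its list and had no Tbx4 partner, whereas the Tbx4 sites of the gene were near or below the middle of theirs.

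**Figure D4:**
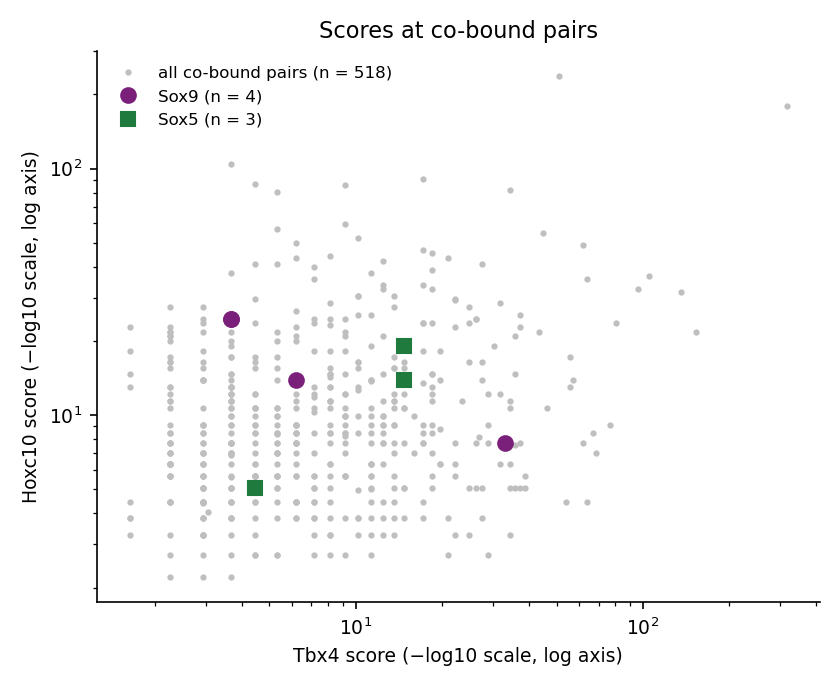
Tbx4 score (x) against Hoxc10 score (y), both on log axes, at all 518 co-bound pairs (grey) and at those of Sox9 (circles, 4 pairs) and Sox5 (squares, 3 pairs). A pair of Sox9 points coincides at 3.67 and 24.63; the pairs of both genes lie within the cloud of all pairs.

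The summits of the 7 pairs were 19 to 142 bp apart, with a median of 52 bp, against a median of 63.5 bp (quartiles 28 and 105) over all 518 pairs. The pairs of Sox5 were 32, 39 and 56 bp apart, and those of Sox9 19, 52, 124 and 142 bp.

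Set among all protein-coding genes, the 3 genes had more sites than most, and their domains were also longer than most. At least 1 Tbx4 site was in the domain of 17.2% of the 21887 genes and at least 1 Hoxc10 site in that of 6.83%, with both in 5% and a co-bound pair in 2.65%. The median domain was 67.3 kb. Among the 906 genes with a domain of at least 1 Mb, which include Sox9, Sox5 and Sox6, the shares were 56.2% for Tbx4, 38.2% for Hoxc10, 34.1% for both and 18.4% for a pair, with a median of 1 Tbx4 site. Sites of both factors were thus more frequent in domains of this size than over all genes, though still found in a minority of them. By the number of Tbx4 sites Sox9 ranked 5, with 17 where the highest count was 26, Sox5 ranked 26 with 11, and Sox6 ranked 114 with 6, a count shared by 70 genes. By Hoxc10 sites the ranks were 12, 111 and 196, counts shared by 6, 85 and 279 genes. Per Mb of domain, Sox9 had 11.6 Tbx4 and 4.79 Hoxc10 sites, Sox5 6.16 and 1.68, and Sox6 4.87 and 1.62. Among the 906 large domains these are ranks 7, 37 and 73 for Tbx4 and 13, 116 and 118 for Hoxc10, where the median gene had 0.679 Tbx4 sites per Mb. Neighbouring genes share the sites between them and are not independent.

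**Figure D5:**
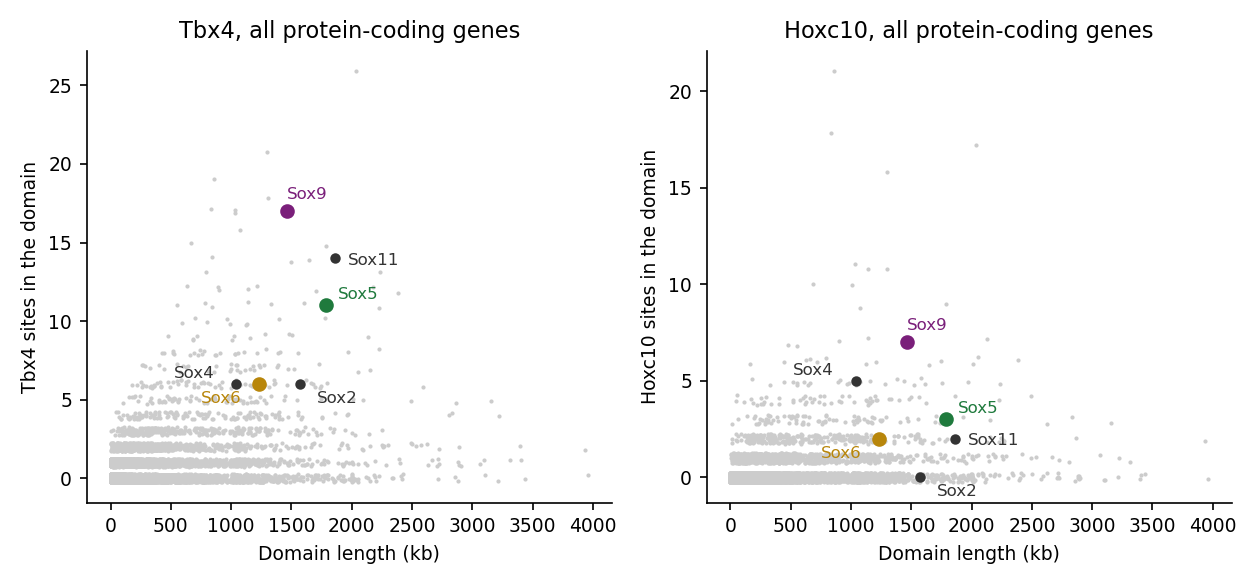
Number of Tbx4 sites (left) and Hoxc10 sites (right) in the domain of each protein-coding gene (y; grey points are spread vertically by up to 0.25) against domain length in kb (x). Sox9 (17 and 7), Sox5 (11 and 3) and Sox6 (6 and 2) are marked beside the other Sox genes with domains of at least 1 Mb, Sox11, Sox4 and Sox2.

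The closest paralogues of the 3 genes had no site. Sox13, the third SoxD gene, and Sox8 and Sox10, the other SoxE genes, had 0 Tbx4 and 0 Hoxc10 sites, in domains of 224, 81.9 and 77.4 kb that are shorter than those of Sox9, Sox5 and Sox6. Of 20 Sox genes 10 had Tbx4 sites and 6 Hoxc10 sites, beside 17.2% and 6.83% of all genes. These split by domain: all 6 Sox genes with at least 1 Mb had Tbx4 sites and 5 Hoxc10 sites, against 4 and 1 of the 14 others. Over all 906 genes with domains of at least 1 Mb, 56.2% had Tbx4 sites and 38.2% Hoxc10 sites. Besides Sox9, Sox5 and Sox6 the 6 were Sox11 (14 Tbx4 and 2 Hoxc10 sites, 2 pairs), Sox4 (6 and 5, 3 pairs) and Sox2 (6 and 0). Sox11 and Sox4 are SoxC genes of mesenchyme and nerve cells, and Sox2 is a factor of neural and stem cells.

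Other genes of cartilage were read from fixed lists, beside the shares over all genes of 17.2% with a Tbx4 site, 6.83% with a Hoxc10 site and 2.65% with a pair. Of 16 cartilage matrix genes, on which Sox9, Sox5 and Sox6 act, 5 had a Tbx4 site (31.2%), 1 a Hoxc10 site (6.25%) and 0 a pair. The Tbx4 share was above that of all genes and the Hoxc10 share near it, and the list's median domain was 61.2 kb against 67.3 kb. The 5 with a Tbx4 site had domains of 1274 (Col11a1), 832 (Matn1), 157 (Col9a1), 136 (Cnmd) and 54.0 kb (Col11a2). The Tbx4 difference was smaller with other domains. With the gene plus 5 kb on either side, 2 of the 16 had a Tbx4 site, beside 2359 of all genes. With sites given to the nearest gene, 3 had one, beside 2897 of all genes. Col2a1, which encodes the collagen of cartilage, Acan, the large proteoglycan, and Col9a2, Col9a3, Hapln1, Comp and Matn3 had 0 sites of either factor. Matn1, a matrix adaptor protein, had 3 Tbx4 and 1 Hoxc10 sites, Cnmd, an inhibitor of vessel growth, had 2 and 0, and Col9a1, Col11a1 and Col11a2 had 1 and 0 each. A count of 0 does not show that distant elements beyond the neighbouring gene were unbound.

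Regulators and signals that act beside Sox9 in cartilage stood in domains with a median of 276 kb, longer than those of all genes. Of 21 such genes 16 had Tbx4 sites (76.2%), 11 Hoxc10 sites (52.4%) and 5 a pair (23.8%), each above the share over all genes. In windows of the gene plus 5 kb on either side, the genes with Hoxc10 sites fell from 11 to 3, beside 1495 to 578 over all genes. The genes of this list with Tbx4 sites fell from 16 to 12, beside 3765 to 2359 over all genes. In the main setting the median gene had 2 Tbx4 sites and 1 Hoxc10 site, against 0 and 0 over all genes. The fullest were Trps1, a repressor of chondrocyte maturation (9 Tbx4 and 7 Hoxc10 sites, 2 pairs), the BMP receptor gene Bmpr1b (7 and 1), the mesenchyme factor Prrx1 (5 and 3, 1 pair) and the ligand gene Bmp4 (5 and 2, 2 pairs). Ihh and Fgfr3, a ligand and a receptor of the growth plate, each had 0 Tbx4 sites and 1 Hoxc10 site, and Gdf5, Bmpr1a and Arid5a had neither. Lists of other cell types in the bud were of 10 genes each: 4 ectoderm genes (40%) had a Tbx4 site and 0 a Hoxc10 site, with 4 (40%) and 1 (10%) for endothelium and 2 (20%) and 1 (10%) for blood. The Tbx4 shares of ectoderm and endothelium were thus also above the 17.2% of all genes. Their median domains, 137 and 247 kb, were longer than the 67.3 kb of all genes. With the gene plus 5 kb, 1 ectoderm and 0 endothelium genes had a Tbx4 site.

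The genes most like each of the 3 in their numbers of Tbx4 sites, Hoxc10 sites and pairs were taken by Euclidean distance over these 3 counts, from 1 library per factor. For Sox9 they were Tbx15 (15, 6 and 5; distance 2.45), Zfhx3 (15, 9 and 4; 2.83) and Tbx18 (16, 9 and 6; 3). For Sox5 they were Gm44812 (12, 4 and 3; distance 1.41), Rora (10, 4 and 2; 1.73) and Pard3b (12, 3 and 1; 2.24). At Sox5 9 genes were at a distance of 2.24 or less, and ties were ordered by the nearest domain length. Sox6 had many genes with like counts, of which Intu and Nrp1 had the same 6, 2 and 0 and Bmper 6, 1 and 0, with 25 genes at a distance of 1 or less.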

How the data were processed

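Binding sites came from the deposited lists of peak summits, 4780 for Tbx4 and 1614 for Hoxc10 (Abcam antibody), 1 sample each. Embryos were at embryonic day 11.5. Bowtie2 2.2.6, MACS2 2.1.1.20160309 and HOMER were used on mm10, per the submitters' processing notes. The score that the authors deposited is a MACS2 value on a −log10 scale. The sources used here do not say whether it stands for p-values or q-values, which control library was used or how the summits were chosen. The name of the Hoxc10 list may mean that only sites within 200 bp of Santa Cruz antibody peaks were kept. Both list names hold the letters rmskBL, which may mean that sites in repeats or excluded regions were removed. The Tbx4 name also holds the word gate, with no rule given. A stretch without a listed summit may therefore have held summits that were removed.

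Genes came from a RefSeq table of GRCm38.p6, the same build as mm10, with gene ends but no exons. Domains ended at the next protein-coding gene or at 1 Mb, and a side on which another coding gene overlaps was not extended. Summits within 200 bp were called co-bound. Intervals are exact binomial (Clopper-Pearson, scipy 1.17.1) and treat sites as independent. Sites of a library are not replicates, so no test was run. Counting was checked on simulated sites. The 3 genes, the 6 gene lists and the settings were chosen with earlier results of these data known. Named are the 3 genes and those that bound them, Sox13, Sox8 and Sox10, up to 4 genes per list by sites, and the 3 genes most like each; further list genes were named after their counts were seen. Alternatives changed the limit of 1 Mb, the bounding genes, the sites used and the distance of a pair.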

Additional observations from a re-analysis of the deposited data

How the results depend on the processing

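The limit of 1 Mb and the bounding gene set most counts. At Sox9 17 Tbx4 sites, 7 Hoxc10 sites and 4 pairs became 9, 2 and 1 with a limit of 500 kb, 1, 0 and 0 with 100 kb, 0, 0 and 0 when non-coding genes also ended the domain, and 6, 2 and 1 with sites given to the nearest gene only. At Sox5 the Hoxc10 sites and pairs fell from 3 and 3 to 1 and 1 with 100 kb, with non-coding bounds and with the nearest gene, and at Sox6 the Hoxc10 sites from 2 to 1 in these settings. Without a limit, and with gene models named by a Gm number passed over (a setting added after seeing the data), no count moved by over 1.5 times, nor with genes widened by 1 kb. With scores at or above each list's median Sox9 had 4 Hoxc10 sites (median score 19.2 in place of 7.72) and Sox6 3 Tbx4 sites. With as many of the highest Tbx4 summits as the Hoxc10 list has sites, Sox9 had 8 sites and 2 pairs, Sox5 6 sites and Sox6 0. Pairs of Sox9 numbered 1 within 50 bp and 2 within 100 bp; those of Sox5 stayed within 1.5 times of 3 and Sox6 had 0 up to 1000 bp.

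Gene list counts depended on the domain too. The list counts below are only those that moved by over 1.5 times. They are of 20 Sox, 16 matrix and 21 regulator genes and of 10 each for ectoderm, endothelium and blood. Others moved less: regulator genes with Tbx4 sites numbered 16 in the main setting, 12 with 5 kb and 14 with the nearest gene. Sox genes with the nearest gene numbered 8 for Tbx4 and 6 for Hoxc10. With domains of the gene plus 5 kb on either side, Tbx4 sites were at 3 Sox genes, 2 matrix, 1 ectoderm, 0 endothelium and 0 blood genes and at 2359 of all genes, and Hoxc10 sites at 3 Sox genes, 0 matrix, 3 regulator, 0 endothelium and 0 blood genes and at 578 of all genes. With the nearest gene, Tbx4 sites were at 3 matrix and 2 ectoderm genes and at 2897 of all genes. Hoxc10 sites were then at 0 matrix, 5 regulator and 0 blood genes and at 1104 of all genes. With scores at or above the median, Tbx4 sites were at 1 blood gene and at 2595 of all genes. Hoxc10 sites were then at 7 regulator genes, 0 blood genes and 922 of all genes. Of 147 values under alternatives 96 stayed within 1.5 times of the main count, or within the spread of scores, and 51 moved. No paired analysis was possible because each factor has 1 sample. The read depth is unknown, so that sites too weak for these lists cannot be judged.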

Other observations

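Between the 1 Mb limit and Kcnj2, 3 more Tbx4 sites and 0 Hoxc10 sites were listed. They lie at 111732223, 111715487 and 111658428 of chromosome 11, 1050, 1067 and 1124 kb from Sox9, with scores of 9.15, 7.14 and 3.67. The outermost site counted for Sox9 was the Hoxc10 summit at 954 kb, beside the Tbx4 summit of 28.89. With the 3 sites the desert between Kcnj2 and Slc39a11 held 20 Tbx4 sites.

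The peak names carry running numbers of MACS2 that rise with position, so the numbers missing between listed sites can be counted. From the first to the last listed site, a span that raises the share because it begins and ends with a listed site, Sox9 had 17 Tbx4 sites within 26 numbers (65.4%), Sox5 11 within 27 (40.7%) and Sox6 6 within 17 (35.3%). Among the 183 genes with at least 6 Tbx4 sites this share had a median of 54.5% (quartiles 35.3 and 71.4%). Over the whole domain the listed share was at least 65.4% at Sox9, 14.1% at Sox5 (at most 78 numbers) and 18.2% at Sox6 (at most 33), where 10.6% of all numbers up to 45103 are listed. For Hoxc10 the whole domain gave at least 53.8% at Sox9, 30% at Sox5 and 40% at Sox6, where 40.1% of all numbers are listed. The shares of all numbers also cover stretches without a listed site. Whole-domain shares of other genes with many sites were not computed, so these values have no like comparison.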
